A study of Mus musculus with 45 samples.

Results

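Skeletal muscle was compared with epididymal fat in 129S6/SvEvTac (129S6) mice on the low-fat diet, on 7 arrays chosen by their sample titles from the 45 arrays of the series: 4 of muscle (replicates 9 to 12) and 3 of fat (replicates 9 to 11). The whole series covers these tissues and liver in 129S6 and C57Bl/6 (B6) mice, each strain fed low-fat or high-fat. Animals were 6 months of age, and each array carried labelled cRNA made from 25 µg of RNA pooled from 2 to 3 animals. The spread between arrays therefore holds that between pools, not single animals, and that of the measurement. The design text gives 1 diet, in which carbohydrate made up 57%, protein 22% and fat 21%, and does not say which of the diets it was. The sources used here do not name the muscle that was taken, and no group carried a transgene or a drug. Arrays that the comparison did not use gave the same tissue difference elsewhere: low-fat B6 mice (3 muscle and 4 fat arrays) and high-fat 129S6 mice (4 muscle and 3 fat arrays). The 4 liver arrays of low-fat 129S6 mice gave a further level for each gene.

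Muscle and white fat divide the handling of fuel between them. Muscle fibres hold sarcomeres, in which myosin thick filaments pull on actin thin filaments when calcium leaves the sarcoplasmic reticulum, and they renew ATP from phosphocreatine, glycogen, glucose and fatty acids. White fat cells store triglyceride in a single large droplet, release fatty acids from it by lipolysis, and secrete hormones such as leptin and adiponectin. The epididymal pad also holds vessels, macrophages, fibroblasts and a mesothelial surface, and it lies against the epididymis. In bulk tissue, fewer cells of a type and less RNA per cell cannot be told apart.

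Levels are log2 values from RMA. This method subtracts background, makes the distributions of single probes equal between arrays, and then combines the probes of a probe set. The resulting levels of probe sets still differed in spread between arrays, as given below. A difference is muscle minus fat in log2 units ± SE over 4 and 3 arrays, 1 unit being a doubling, and a large difference is 2 units (4-fold) or more. A gene was called where limma's adjusted p over the 8251 genes was under 0.05.

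Muscle replicate 9 stood apart from the other muscle arrays. Its correlations with the other muscle arrays averaged 0.876, whereas each of the other 3 had a partner at 0.987 or higher. The SD over its probe sets was 1.57, against 1.83 to 1.86 in muscle replicates 10 to 12, 1.59 to 1.88 in the other 14 muscle arrays of the series and 1.86 to 1.90 in the fat arrays. Its bright probe sets were dimmer, with a 99th percentile of 10.1 against 11.0 to 11.2 in the other muscle arrays. The Gapdh 3′ minus 5′ signal, a measure of RNA and cRNA length that rises as they shorten, was 1.12 in muscle replicate 9, 0.29, 1.83 and 2.56 in replicates 10 to 12, and 0.07 to 0.24 in fat. The same signal of beta-actin ordered the arrays otherwise. It was -0.07, -0.19, 1.10 and 1.17 in muscle replicates 9 to 12 and 0.74 to 0.90 in fat. The part of RNA quality in the differences between the tissues was not tested. Counts for lists are given with replicate 9 and without it, and values of single genes without it where their call changed.

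Of the 8251 genes, 2213 (26.8%) were called, 889 higher in muscle (10.8%) and 1324 higher in fat (16%). Of these, 96 were at least 4-fold higher in muscle (1.16% of all genes) and 158 at least 4-fold higher in fat (1.91%). The levels of muscle and fat did not overlap for any of the 96 and for 157 of the 158, against 44.7% of all genes. The muscle differences were the larger ones, with a median of 3.35 among the 96 against -2.54 among the 158, and 31 genes of muscle and 6 of fat differed 16-fold or more. Without muscle replicate 9, 4076 genes (49.4%) were called, 2039 higher in muscle and 2037 higher in fat (24.7% each), and 132 (1.6%) and 131 (1.59%) were 4-fold or more. Of the 96 and the 158, 93 and 121 were still called with a 4-fold difference. Without fat replicate 9, 10 or 11 the calls fell to 1191, 1277 and 1313. Counts of list members below are to be read beside the shares of all genes. These were 10.8% higher in muscle and 16% higher in fat, and 24.7% each way without muscle replicate 9.

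**Figure D1:**
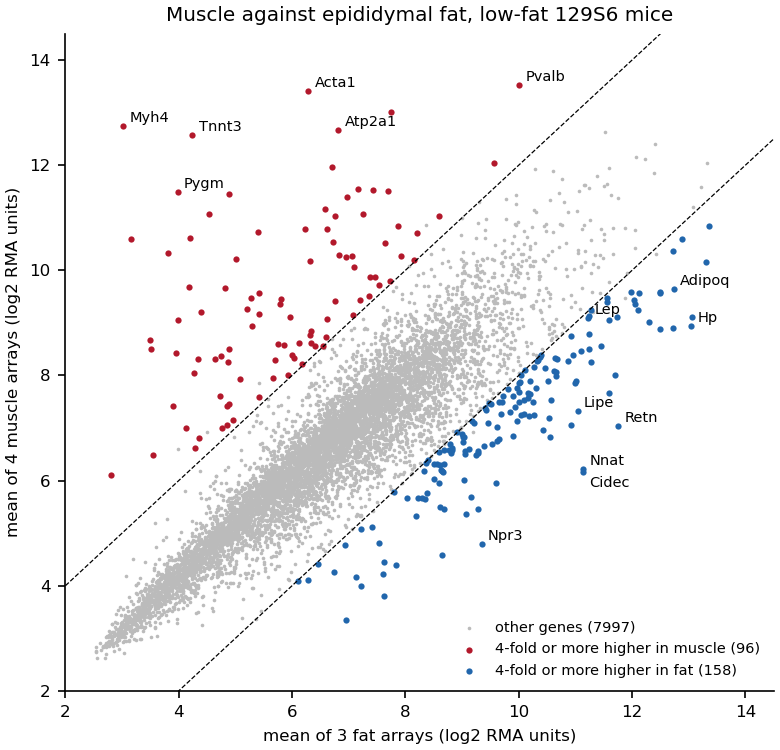
The mean of the 4 muscle arrays is plotted against the mean of the 3 fat arrays, in log2 RMA units, for each of 8251 genes, and the dashed lines mark a 4-fold difference. Red points are the 96 genes called 4-fold or more higher in muscle and blue points the 158 in fat; the red points reach farther from the lines, up to Myh4 at 9.72 log2 units.

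The marker genes matched the labelled tissues. Acta1, the skeletal muscle alpha actin (probe set 100381_at), was at 11.97, 13.96, 13.82 and 13.91 in muscle replicates 9 to 12 and at 5.91, 6.40 and 6.55 in fat replicates 9 to 11, a difference of 7.13 ± 0.49 (adjusted p = 0.000107). The groups were far apart, and muscle replicate 9 was the lowest muscle array. Lep, the gene of leptin, was at 9.38, 9.24, 8.96 and 8.80 in muscle and at 10.99, 11.06 and 11.61 in fat, a difference of -2.13 ± 0.20 (adjusted p = 0.000412). The muscle levels of Lep lay around its mean of 9.03 in liver. Adipoq, the gene of adiponectin, was lower in muscle by 3.09 ± 0.15 log2 units (-3.09, adjusted p = 3.03e-05), yet its muscle levels of 9.49 to 10.0 were above the liver mean of 5.39.

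Genes of the contractile machinery had 4 of the 5 largest differences on the probe sets kept, the other being the glycogen enzyme Pygm. Myh4, the fastest myosin heavy chain, type IIb (probe set 98488_at), was at 11.73, 13.08, 13.12 and 13.03 in muscle and at 2.97, 2.90 and 3.20 in fat. Its difference was 9.72 ± 0.34 (adjusted p = 1e-05), and a second probe set gave 0.92 ± 0.20 (adjusted p = 0.0143). The fat levels of the first lay below its liver mean of 3.62, and no detection calls were used, so that whether low levels such as these were above background is not known and a difference from them gives no exact fold. Myh1, the type IIx heavy chain, followed the same pattern, with 9.87 in muscle replicate 9, 10.75 to 10.93 in the other muscle arrays, 3.05 to 3.31 in fat and a difference of 7.44 ± 0.26 (adjusted p = 1e-05). Of 14 measured genes of the thick filament and titin, 13 were called, all of them higher in muscle, and 9 were 4-fold or more higher. The exception, Myh2 of type IIa fibres, differed by 0.28.

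The light chains that sit on the myosin heads were among the 13. Myl1 of fast fibres was 5.26 ± 0.48 higher in muscle, Myl2 of slow fibres 5.50 ± 0.64 and Myl3 of slow fibres 5.18 ± 0.94. Myl3 was at 5.85 in muscle replicate 9 and at 9.30 to 10.10 in the other muscle arrays. The median difference of the list was 4.13, and 4.71 without replicate 9, against 0.069 and 0.048 over all genes tested.

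Of 23 measured genes of the thin filament and Z-disc, 21 were called higher in muscle, 17 of them 4-fold or more, and none was called higher in fat, and 22 and none without replicate 9. Tnnt3, the fast troponin T that ties troponin to tropomyosin, was at 11.57, 13.23, 12.74 and 12.77 in muscle and at 3.94, 4.13 and 4.64 in fat, a difference of 8.34 ± 0.38 (adjusted p = 2.52e-05). The Z-disc crosslinker Actn3 differed by 4.57 ± 0.91, and by 5.84 on another probe set, and the fast calcium sensor Tnnc2 by 4.43 ± 0.65. Tpm1 (-0.38) and Actn2 (0.57) were not called, and Actn2 was called without replicate 9 (0.72, adjusted p = 0.00501). Both fibre types contributed: 12 of 13 fast-fibre isoforms and 8 of 9 slow-fibre isoforms were called higher in muscle, with medians of 4.43 and 3.21. The slow myosin Myh7 differed by 4.19 ± 0.36, but by 0.34 (adjusted p = 0.0711) on another probe set.

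Calcium handling went the same way, with 9 of 11 measured genes called higher in muscle, 10 without replicate 9, and 7 of the 9 at 4-fold or more. Ryr1, the release channel of the sarcoplasmic reticulum, was at 9.05, 11.07, 11.23 and 11.10 in muscle and at 4.11, 4.21 and 4.30 in fat (6.41 ± 0.52, adjusted p = 0.000188). Atp2a1, the pump that returns calcium to the store, was at 10.13 in muscle replicate 9, at 13.41 to 13.62 in the other muscle arrays and at 6.61 to 6.96 in fat (5.86 ± 0.83, adjusted p = 0.00225), and another probe set gave 8.21 ± 0.33 (adjusted p = 1.79e-05). Casq1, which binds calcium in the store, differed by 4.11 ± 0.78. Pvalb, a soluble calcium buffer of fast fibres, differed by 3.51 ± 0.47 from a fat level of 9.85 to 10.16, near its liver mean of 9.64, and by 7.32 ± 0.18 (adjusted p = 2.11e-06) on another probe set. On the first probe set of each of these genes muscle replicate 9 was the lowest muscle array and still above every fat array.

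**Figure D2:**
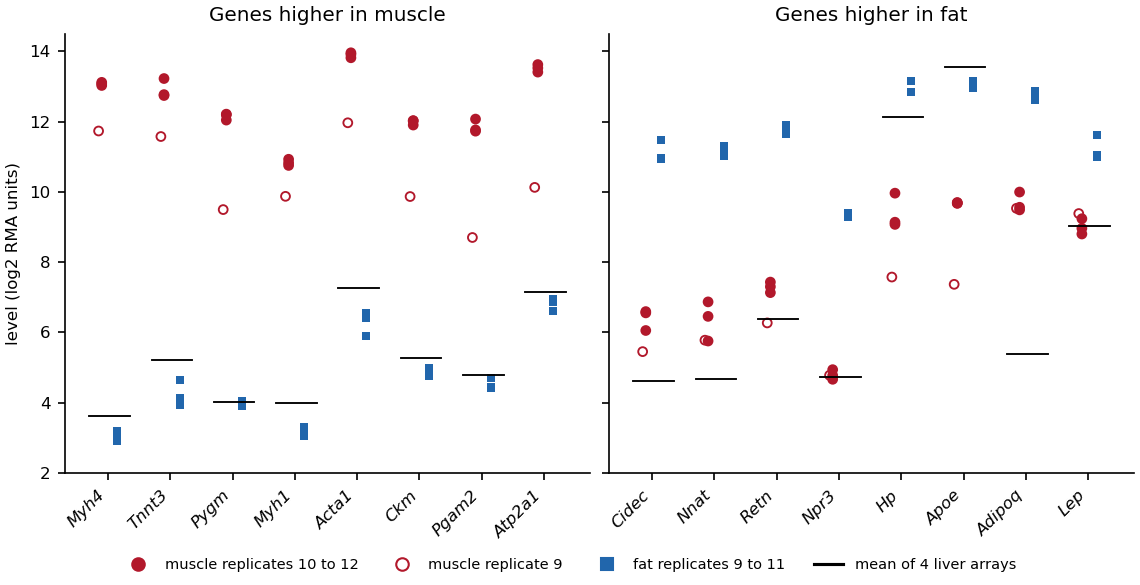
Levels in log2 RMA units of 8 genes higher in muscle (left) and 8 higher in fat (right) are shown for every array: filled circles are muscle replicates 10 to 12, open circles muscle replicate 9, squares fat replicates 9 to 11 and black lines the mean of the 4 liver arrays. In the left panel the open circle lies below the filled circles and above all squares for each gene; Hp and Apoe are within 1 unit of their fat mean in liver, whereas Adipoq is higher in muscle than in liver.

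The 250 bases before the start of 3 muscle genes are printed because these genes moved together and their promoters hold the motifs that muscle factors are known to bind. The sequences are from RefSeq on GRCm38.p6, the genome of another mouse strain, and run 5′ to 3′ on the strand of the gene. Capitals mark a CArG box, the site of serum response factor, a MEF2 site, and the E-box CAGCTG, bound by MyoD and its relatives. Acta1 lies on the minus strand (chr8:123894776-123895025), with CCAAATATGG 73 bases and CAGCTG 221 bases before the start. Myh4 lies on the plus strand (chr11:67237562-67237811), with TTATTTATAG at 182, CCAAAAATGG at 104 and CAGCTG at 67 bases. Pgam2, a glycolytic enzyme described below, lies on the minus strand (chr11:5803797-5804046), with CAGCTG at 125 and CTATTTTTAA at 80 bases.
Acta1: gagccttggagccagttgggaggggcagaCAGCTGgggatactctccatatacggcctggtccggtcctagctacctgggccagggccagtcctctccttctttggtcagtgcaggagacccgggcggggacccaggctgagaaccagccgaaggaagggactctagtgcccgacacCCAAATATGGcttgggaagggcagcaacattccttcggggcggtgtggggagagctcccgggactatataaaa
Myh4: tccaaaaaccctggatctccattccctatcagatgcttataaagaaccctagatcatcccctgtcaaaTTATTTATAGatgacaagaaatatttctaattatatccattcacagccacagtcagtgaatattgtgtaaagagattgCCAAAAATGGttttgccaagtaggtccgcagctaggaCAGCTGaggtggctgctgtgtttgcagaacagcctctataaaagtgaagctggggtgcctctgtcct
Pgam2: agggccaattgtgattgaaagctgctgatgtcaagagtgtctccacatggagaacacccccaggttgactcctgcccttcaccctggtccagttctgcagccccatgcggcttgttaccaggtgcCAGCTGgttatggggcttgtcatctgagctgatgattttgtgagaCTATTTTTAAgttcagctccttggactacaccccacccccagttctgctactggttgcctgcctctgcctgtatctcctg

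Of the 96 genes of muscle, 76 had a promoter in the table, with 104 windows of this length. On either strand, 28.8% of these windows held CAGCTG, 7.69% a CArG box and 5.77% a MEF2 site. Over the 8408 windows of all genes tested the shares were 11.9%, 1.43% and 1.62%, and over the 149 windows of 116 genes of the fat list they were 11.4%, 1.34% and 2.01%. CAGCTG is 1 form of the general E-box CANNTG, which 73.1% of the muscle windows, 63.8% of the fat windows and 59.2% of all windows held. A match describes the letters of the window alone.

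Pygm, the glycogen phosphorylase of muscle, had the largest difference among the fuel genes. It was at 9.50, 12.21, 12.04 and 12.19 in muscle and at 3.99, 4.04 and 3.91 in fat, a difference of 7.51 ± 0.65 (adjusted p = 0.000259). Phkg1, the catalytic subunit of the kinase that activates it, differed by 3.78 ± 0.46 (adjusted p = 0.00116). The brain isoform Pygb went the other way, at 4.75 to 5.28 in muscle and 7.08 to 7.31 in fat (-2.14 ± 0.15, adjusted p = 0.000114). Of 14 measured glycogen genes, 5 were called higher in muscle and 2 in fat, and 9 and 4 without replicate 9.

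Phosphocreatine and adenylate genes split by isoform. Of 14 measured, 6 were called higher in muscle (42.9%, against 10.8% of all genes) and 5 in fat (35.7%, against 16%). Without replicate 9 the counts were 7 (50%) and 5 (35.7%), against 24.7% of all genes each way. Ckm, the muscle creatine kinase, was at 9.87, 11.90, 12.03 and 12.02 in muscle and at 4.77, 4.93 and 4.98 in fat (6.56 ± 0.52, adjusted p = 0.000183), and a second probe set gave 0.60 (adjusted p = 0.417). Its mitochondrial partner Ckmt2 differed by 6.52 ± 0.57 (5.45 on another probe set), the adenylosuccinate synthase of muscle Adssl1 by 5.22 ± 0.75 and the adenylate kinase Ak1 by 4.56 ± 0.73. Sh3bgr, a gene of striated muscle outside the lists, differed by 5.33 ± 0.65 and by 0.35 (adjusted p = 0.0619) on another probe set.

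Glycolysis genes were called in both directions over 7 arrays, those in fat near the share of all genes. Of 16 measured genes 5 were called higher in muscle (31.2%, against 10.8% of all genes) and 3 in fat (18.8%, against 16%). Without replicate 9 the counts were 11 (68.8%) and 3 (18.8%), against 24.7% of all genes each way. Pgam2, the muscle phosphoglycerate mutase, was at 8.70 in muscle replicate 9, at 11.73 to 12.07 in the others and at 4.43 to 4.70 in fat (6.53 ± 0.77, adjusted p = 0.00105). Eno3, the muscle enolase, differed by 4.39 ± 0.89 and Pfkm, the muscle phosphofructokinase, by 3.81 ± 0.82. Pfkm was not called without any 1 of fat replicates 9, 10 and 11 (adjusted p = 0.0502 to 0.0565). The liver isoform Pfkl was lower in muscle (-1.49 ± 0.21, adjusted p = 0.00211).

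The count of mitochondrial genes depended on muscle replicate 9. Of 70 measured genes of oxidative phosphorylation, 19 were called higher in muscle and 1 in fat with all 7 arrays, and 62 and 1 without replicate 9, against 10.8% and 24.7% of all genes higher in muscle. The median difference was 0.69 and 1.17. The median level of these genes was 8.13 in muscle replicate 9, 10.4 to 10.6 in the other muscle arrays and 8.99 to 9.07 in fat, so that replicate 9 alone lay below fat. Ribosomal proteins, which every cell uses, had medians of 7.77 in replicate 9, 9.51 to 9.60 in the other muscle arrays and 9.19 to 9.37 in fat. The proteasome list had medians of 7.08, 8.61 to 8.93 and 8.08 to 8.31.

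The largest differences among the 70 were muscle isoforms of cytochrome c oxidase, which passes electrons to oxygen. Cox6a2 was at 9.53, 12.65, 12.94 and 12.77 in muscle and at 6.72, 6.55 and 6.83 in fat (5.27 ± 0.80, adjusted p = 0.00294), and Cox7a1 differed by 4.47 ± 0.59. Of the ubiquitous subunits, Ndufa5 of complex I differed by 1.99 ± 0.15 (adjusted p = 0.000157), with 10.79 in replicate 9 and 10.89 to 11.35 in the other muscle arrays. The gene called higher in fat was Cox6a1, the other isoform of subunit 6a, at 8.09 to 10.42 in muscle and 11.40 to 11.50 in fat (-1.86 ± 0.51, adjusted p = 0.032). Its call was lost when any 1 of muscle replicates 11 and 12 and the fat arrays was left out (adjusted p = 0.0514 to 0.107).

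In the citric acid cycle and at pyruvate dehydrogenase, 3 of 28 measured genes (10.7%) were called higher in muscle and 3 in fat, near or under the 10.8% and 16% of all genes. Without replicate 9 the counts were 17 (60.7%) and 3, against 24.7% of all genes each way. Pdk4, the kinase that shuts pyruvate dehydrogenase in fasting, was at 9.98 to 11.18 in muscle and 7.28 to 7.89 in fat (2.88 ± 0.29, adjusted p = 0.00049). Pcx, pyruvate carboxylase, was lower in muscle (-2.37 ± 0.13, adjusted p = 4.86e-05), but differed by -0.31 (adjusted p = 0.234) on another probe set. Idh1, the cytosolic NADP-dependent isocitrate dehydrogenase, was also lower (-2.32 ± 0.17, adjusted p = 0.000119).

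Of 23 genes of fatty acid uptake and beta-oxidation, 2 were called higher in muscle (8.7%, against 10.8% of all genes) and 6 in fat (26.1%, against 16%). Without replicate 9 the counts were 9 (39.1%) and 8 (34.8%), against 24.7% of all genes each way. Fabp3, the fatty acid binding protein of heart and muscle, was at 7.48, 9.53, 9.97 and 9.25 in muscle and at 3.96, 3.95 and 4.03 in fat (5.08 ± 0.54, adjusted p = 0.00064). Lpl, which frees fatty acids from lipoproteins, was at 9.32 to 9.93 in muscle and 11.89 to 12.06 in fat (-2.38 ± 0.16, adjusted p = 0.000101). Cpt1a, the liver form of the carnitine shuttle enzyme, was lower in muscle (-2.001 ± 0.16, adjusted p = 0.000181).

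Isoform pairs showed the division within single enzymes and proteins. For 15 pairs both members were measured, and in 9 of them the muscle isoform was called higher in muscle and its partner called higher in fat. These pairs were Fabp3 and Fabp4 (5.08 and -0.98), Cav3 and Cav1 (1.63 and -2.88), Ckm and Ckb (6.56 and -0.92), Cox6a2 and Cox6a1 (5.27 and -1.86), Pgam2 and Pgam1 (6.53 and -1.43), Pfkm and Pfkl (3.81 and -1.49), Slc25a4 and Slc25a5 (2.47 and -0.83), Adssl1 and Adss (5.22 and -1.06), and Acta1 and Acta2 (7.13 and -0.90). Cav3 and Pgam1 were not called without any 1 of the fat arrays (adjusted p = 0.0516 to 0.0575 and 0.0543 to 0.0698), and Acta2 not without muscle replicate 10 or 12 or fat replicate 9 or 11 (0.0511 to 0.0834). Other probe sets gave 3.66 (adjusted p = 0.00638) for Cav3, 0.05 (adjusted p = 0.797) for Cav1, and -0.17 (adjusted p = 0.561) and 0.62 (adjusted p = 0.0134, higher in muscle) for Slc25a5. In the hexokinase pair neither Hk2 (1.16 ± 0.50, adjusted p = 0.129) nor Hk1 (-0.05, adjusted p = 0.938) was called, and Hk2 was called without muscle replicate 9 (1.67, adjusted p = 1.19e-06).

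**Figure D3:**
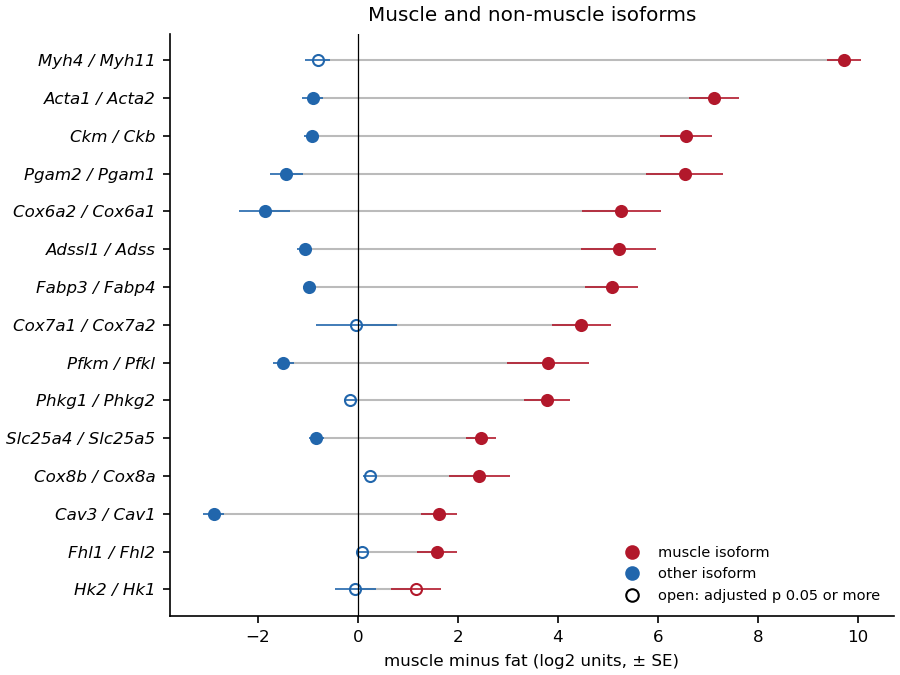
For each of 15 pairs the difference, muscle minus fat, is given in log2 units with its SE, red for the muscle isoform and blue for the other, and open circles were not called. All red points lie right of 0, and 9 of the blue points are filled and lie left of it, from Cav1 at -2.88 to Slc25a5 at -0.83.

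Regulators of muscle growth and differentiation gave smaller differences, with 10 of 20 measured genes called higher in muscle, 3 of them 4-fold or more, and none in fat, and 11 and none without replicate 9. Mstn, the growth inhibitor myostatin, was at 7.98, 7.79, 7.39 and 7.26 in muscle and at 4.59, 4.74 and 4.87 in fat (2.87 ± 0.19, adjusted p = 1e-04). Replicate 9 was the highest muscle array for this gene. Myf6, the myogenic factor of mature fibres, differed by 2.18 ± 0.20 (adjusted p = 0.000361). Smyd1, a methyltransferase of striated muscle, differed by 2.51 ± 0.36, and by 0.58 (adjusted p = 0.0645) on another probe set.

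At the membrane and the junction with the nerve, 6 of 14 genes were called higher in muscle and none in fat. The share in muscle was 42.9%, against 10.8% of all genes. Without replicate 9, 10 (71.4%, against 24.7%) and none were called, and none called differed 4-fold. Clcn1, the chloride channel of the fibre, differed by 1.39 ± 0.21 (adjusted p = 0.00289). Of 13 genes of the dystrophin complex and sarcolemma, 4 were called higher in muscle (30.8%) and 2 in fat (15.4%). The shares of all genes were 10.8% and 16%. Without replicate 9 the counts were 7 (53.8%) and 3 (23.1%), against 24.7% of all genes each way. Sgca, alpha-sarcoglycan, had the largest difference of the list at 2.72 ± 0.74 (adjusted p = 0.0321). It was at 6.43 in muscle replicate 9, 8.94 to 9.94 in the other muscle arrays and 5.68 to 6.12 in fat. Its call was lost when any 1 of the other 6 arrays was left out (adjusted p = 0.0613 to 0.111), and another probe set gave 3.79 ± 0.50 (adjusted p = 0.00155).

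On the fat side, genes of secreted fat proteins were high together. Of 19 measured adipokines and secreted proteins, 12 were called higher in fat, each of them 4-fold or more, and none in muscle (13 and 1 without replicate 9); the median of the list was -2.38, and -2.41 without muscle replicate 9. Retn, the gene of resistin, was at 6.27, 7.43, 7.13 and 7.30 in muscle and at 11.73, 11.65 and 11.90 in fat (-4.73 ± 0.27, adjusted p = 5.42e-05). Hp, the haemoglobin scavenger haptoglobin, was at 7.58, 9.96, 9.14 and 9.07 in muscle and at 13.15, 12.83 and 13.14 in fat (-4.10 ± 0.49, adjusted p = 0.00114). Apoe, the lipoprotein ligand, was at 7.37 in muscle replicate 9, at 9.67 to 9.70 in the other muscle arrays and at 12.96 to 13.17 in fat (-3.95 ± 0.57, adjusted p = 0.0024). Rbp4, the retinol carrier, differed by -3.34 ± 0.15. Hp, Apoe and Rbp4 were also high in liver, at means of 12.14, 13.56 and 12.08. On the probe sets kept, Lep, described above, had the smallest difference of the 12, and another probe set of Lep gave -2.66 (adjusted p = 4.81e-05).

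The promoter of Lep is printed because the gene marks fat and the window holds TTNNGCAA, a form of the site of C/EBP alpha, a factor of fat cell differentiation, in capitals 55 bases before the start. It lies on the plus strand (chr6:29059971-29060220, RefSeq on GRCm38.p6).
Lep: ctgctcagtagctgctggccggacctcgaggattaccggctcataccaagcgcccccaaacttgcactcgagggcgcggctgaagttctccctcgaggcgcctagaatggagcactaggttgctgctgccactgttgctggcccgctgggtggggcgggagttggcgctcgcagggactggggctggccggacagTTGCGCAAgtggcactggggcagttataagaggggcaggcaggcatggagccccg
On either strand TTNNGCAA occurred in 10.1% of the windows of the fat list, in 11.5% of those of the muscle list and in 8.62% of all windows.

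Droplet and lipolysis genes were the other large group of fat. Of 19 measured genes, 14 were called higher in fat, 10 of them 4-fold or more, and 1 in muscle, and 16 and 1 without replicate 9, with 8 of the 16 at 4-fold or more. Cidec, which enlarges droplets by fusing them, was at 5.45, 6.59, 6.56 and 6.05 in muscle and at 10.95, 10.97 and 11.46 in fat. Its difference of -4.96 ± 0.30 (adjusted p = 6.32e-05) was the largest on the fat side. Lipe, hormone-sensitive lipase, was at 7.09, 7.79, 7.22 and 7.19 in muscle and at 11.09, 11.01 and 11.02 in fat (-3.72 ± 0.18, adjusted p = 2.76e-05). Plin4, a droplet coat protein, differed by -3.68 ± 0.48 (adjusted p = 0.0015). Mgll, the lipase of the last step of lipolysis, differed by -3.13 ± 0.27, and by 0.24 (adjusted p = 0.37) on another probe set.

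Fatty acid synthesis was higher in fat as a list, with 13 of 18 measured genes called there, 8 of them 4-fold or more, and none called in muscle, and 14 and 1 without replicate 9. Fasn, fatty acid synthase, was at 8.19, 10.48, 9.21 and 10.45 in muscle and at 12.53, 12.33 and 12.60 in fat (-2.90 ± 0.54, adjusted p = 0.00739). The muscle arrays were spread over more than 2 units, and all lay below fat. Slc25a1, which exports citrate from mitochondria for the synthesis, differed by -2.67 ± 0.29 (adjusted p = 0.000728), and by -1.97 on another probe set.

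Of 21 transcription factors of fat cell formation, 11 were called higher in fat (52.4%) and 1 in muscle (4.76%). Over all genes the shares were 16% and 10.8%. Without replicate 9 the counts were 12 (57.1%) and 2 (9.52%), against 24.7% of all genes each way. The 2 that were 4-fold or more higher in fat were Cebpa and Pparg. Cebpa, C/EBP alpha, was at 8.86 to 9.11 in muscle and 12.21 to 12.40 in fat (-3.29 ± 0.11, adjusted p = 8.99e-06). Pparg, the nuclear receptor that directs fat cell differentiation, was at 4.10, 4.57, 4.49 and 4.64 in muscle and at 7.72, 7.40 and 7.74 in fat (-3.17 ± 0.16, adjusted p = 3.42e-05).

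Hormone receptors and signalling genes of fat cells had 5 of 14 members called higher in fat and none in muscle, and 8 and 2 without replicate 9. Npr3, the clearance receptor of natriuretic peptides, was at 4.67 to 4.94 in muscle and 9.29, 9.39 and 9.36 in fat (-4.56 ± 0.11, adjusted p = 2.67e-06), and other probe sets gave -3.11 and -1.45 (adjusted p = 0.000176 and 0.000484). Gnai1, an inhibitory G protein subunit that curbs cyclic AMP, differed by -3.83 ± 0.19 (adjusted p = 3.03e-05), and by -2.64 on another probe set. Ghr, the growth hormone receptor, differed by -3.72 ± 0.17 (adjusted p = 2.52e-05).

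The 15 largest differences of fat also held genes of several other functions. Psat1, of serine synthesis, was at 4.43 to 4.79 in muscle and 8.49 to 8.72 in fat (-4.06 ± 0.13, adjusted p = 8.01e-06). Cdo1, which oxidises cysteine, was at 6.67 to 8.27 in muscle and 11.55 to 11.66 in fat (-3.92 ± 0.35, adjusted p = 0.000301). Cyp2e1, a cytochrome P450 typical of liver, was at 8.20 to 9.37 in muscle, 12.62 to 12.88 in fat and a mean of 12.88 in liver (-3.82 ± 0.26, adjusted p = 0.000107). Abcd2, a peroxisomal carrier of fatty acyl-CoA, differed by -3.70 ± 0.19. Nnat, an imprinted gene whose protein lies in the endoplasmic reticulum, was at 5.78, 6.87, 6.46 and 5.75 in muscle and at 11.11, 11.01 and 11.29 in fat (-4.92 ± 0.28, adjusted p = 5.41e-05). Lrg1, a secreted glycoprotein, and Ccdc80, a protein of the matrix, differed by -3.86 ± 0.43 and -3.82 ± 0.17.

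Macrophage, endothelial and matrix markers were called higher in fat or not at all, with 7 arrays and without replicate 9. Of 23 macrophage and dendritic markers 13 were called higher in fat, 3 of them 4-fold or more, 16 without replicate 9, and the median of their levels was 6.95 to 7.43 in fat and 6.31 to 6.40 in muscle. C1qa, of the first complement component, was at 5.92, 8.03, 6.82 and 6.40 in muscle and at 9.59, 9.42 and 9.97 in fat (-2.87 ± 0.46, adjusted p = 0.00383). Its partner C1qb differed by -2.46 ± 0.35, but by 1.19 (adjusted p = 0.0193, higher in muscle) on another probe set. Of 21 lymphocyte markers 4 were called, all higher in muscle and by less than 1 unit, led by Cd79a of B cells (0.89 ± 0.14, adjusted p = 0.00321). Their share was 19%, against 10.8% of all genes. Without replicate 9, 9 lymphocyte markers were called higher in muscle and 3 in fat, the latter, named after their values were seen, being Cd52 (-1.98), Ighm (-0.78) and Cd37 (-0.39). Of 9 genes of class II antigen presentation 5 (55.6%) were called higher in fat, with or without replicate 9. The shares of all genes were 16% and 24.7%. The part of macrophages in the tissue difference was not tested.

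Of 37 fibroblast and matrix genes 22 were called higher in fat (59.5%), 4 of them 4-fold or more, and of 18 endothelial markers 9 (50%). The share of all genes was 16%. Without replicate 9 the counts were 28 (75.7%) and 13 (72.2%), against 24.7% of all genes. Col15a1, a collagen of basement membranes, was at 6.75 to 7.32 in muscle and 9.77 to 10.36 in fat (-2.84 ± 0.20, adjusted p = 0.000125). The fibrillar collagen Col1a1 (-0.08, adjusted p = 0.905, and 0.56, adjusted p = 0.0953, on another probe set) and the endothelial Pecam1 (0.36, adjusted p = 0.142) and Cdh5 (-0.53, adjusted p = 0.326) were not called with 7 arrays, and Cdh5 was called higher in fat without muscle replicate 9 (-0.89, adjusted p = 0.000968). Upk3b, a mesothelial marker, was at 6.28 to 6.65 in muscle and 7.44 to 7.68 in fat (-1.18 ± 0.13, adjusted p = 0.000742). Krt19, a marker of mesothelium and epithelium, was not called (-0.67, adjusted p = 0.072; -0.71, adjusted p = 0.0219, without replicate 9), and another probe set gave 0.23 (adjusted p = 0.545). Of 11 mesothelial and epithelial markers 2 were called higher in fat (18.2%, against 16% of all genes) and none in muscle. Without replicate 9, 6 were called higher in fat (54.5%, against 24.7%).

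**Figure D4:**
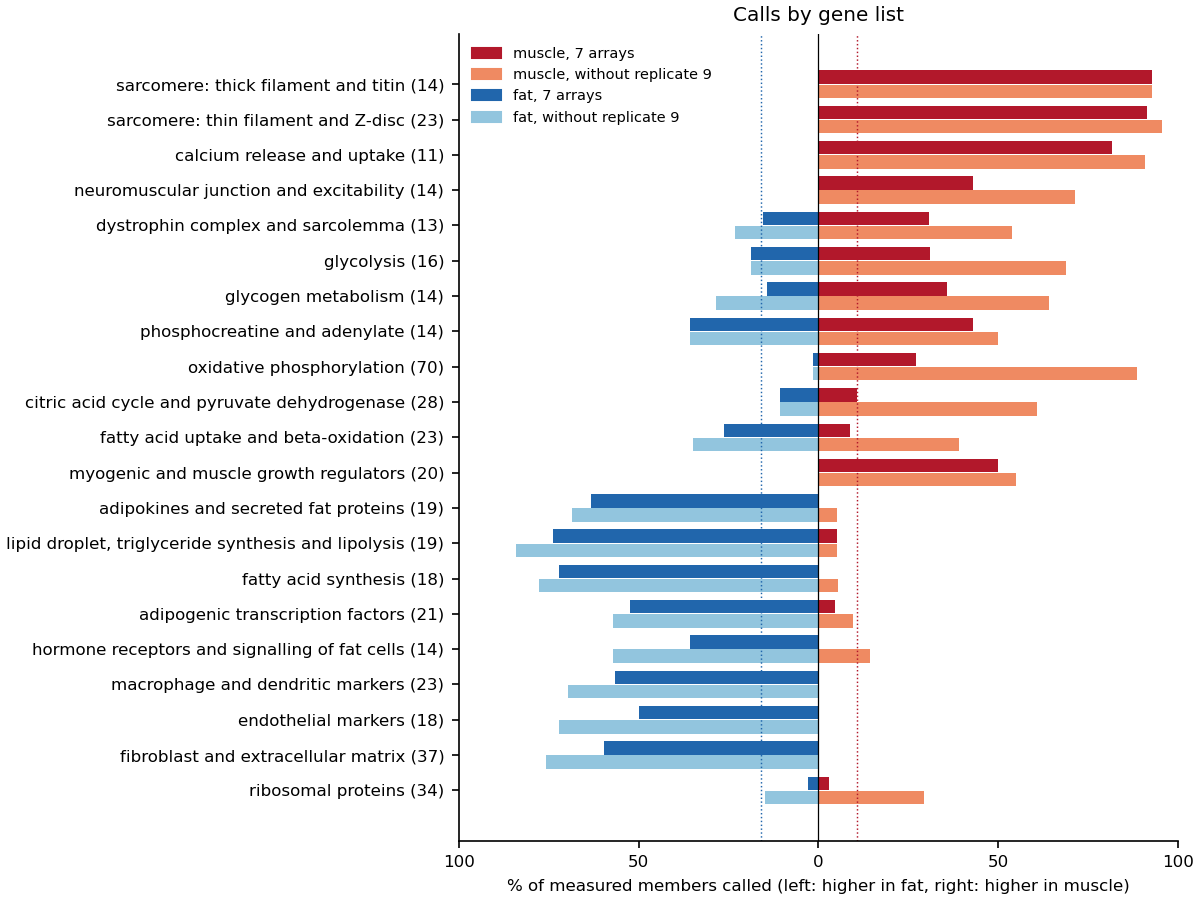
For each gene list (measured members in parentheses) the bars give the percentage of members called higher in muscle (right, red) and higher in fat (left, blue), dark with 7 arrays and pale without muscle replicate 9, and the dotted lines mark 10.8% and 16% of all genes with 7 arrays. The sarcomere and calcium bars lie wholly on the right, the dark ones at 81.8% to 92.9% and the pale ones at 90.9% to 95.7%. The pale bar of oxidative phosphorylation reaches 88.6% against 27.1% for the dark one.

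Markers of epididymis and liver varied between the fat arrays. Gpx5, a protein of the epididymis, was at 10.92 in fat replicate 9 and at 6.15 and 5.82 in replicates 10 and 11, where muscle was at 5.84 to 6.71 (-1.42 ± 1.15, adjusted p = 0.382). Lcn5, an epididymal lipocalin, was at 8.17 in fat replicate 10 and at 5.63 and 5.56 in the others, with 4.31 to 4.53 in muscle (-2.05 ± 0.60, adjusted p = 0.0407). Without fat replicate 10 its difference was -1.19, and its call was lost without muscle replicate 10, 11 or 12 or fat replicate 9 (adjusted p = 0.0549 to 0.0872). Alb, the gene of albumin, was at 11.12 in fat replicate 9, 8.77 and 8.97 in the other fat arrays, 8.81 in muscle replicate 12 and 5.53 to 6.51 in the other muscle arrays, so that the tissues overlapped (-2.88 ± 0.87, adjusted p = 0.046). Without fat replicate 9 it differed by -2.13 (adjusted p = 0.164), whereas Cyp2e1 and Hp stayed called at -3.74 and -4.05 (adjusted p = 0.00154 and 0.00922). The call of Alb was also lost without muscle replicate 10 or 11 or fat replicate 10 or 11 (adjusted p = 0.0776 to 0.1).

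Blood and brown fat markers varied among the muscle arrays. Of 7 measured blood and erythroid markers, none was called higher in muscle and 1 in fat, and 5 and 2 without replicate 9. Those 4-fold or more higher in muscle without it, named after their values were seen, were S100a8 (2.94), S100a9 (3.06) and Ngp (2.34). With 7 arrays they differed by 2.44, 2.41 and 1.85 and were not called. S100a8 was at 6.34, 9.53, 8.92 and 6.64 in muscle and at 5.31 to 5.51 in fat. Hba-a1, a haemoglobin gene, was at 8.07 in muscle replicate 9, 12.49 to 12.95 in the other muscle arrays and 13.08 to 13.42 in fat, and was not called (-1.64 ± 1.14, adjusted p = 0.314; -0.47, adjusted p = 0.0192, without replicate 9). Of 10 measured brown fat genes, 3 were called higher in muscle (30%, against 10.8% of all genes) and 1 in fat (10%, against 16%). Without replicate 9 the counts were 6 (60%) and 1 (10%), against 24.7% of all genes each way. With 7 arrays those in muscle were Cox7a1 (4.47), described above as a muscle isoform, Cox8b (2.43) and Dio2 (0.58). Ebf2 was the gene called in fat (-1.79 ± 0.20, adjusted p = 0.000779). Ucp1, the uncoupling protein of brown fat, was at 6.54, 9.70, 8.65 and 9.62 in muscle and at 5.69, 7.11 and 5.61 in fat. The groups overlapped at muscle replicate 9 and fat replicate 10, and the difference was 2.49 ± 0.79 (adjusted p = 0.0548), or 3.19 (adjusted p = 0.000115) without replicate 9. Another probe set gave 1.44 ± 0.27 and was called with all 7 arrays (adjusted p = 0.00741). In B6 muscle Ucp1 was at 5.60 to 5.96, and in high-fat 129S6 muscle at 8.02 to 10.32. The strain test of its tissue difference gave 1.63 ± 0.85 (adjusted p = 0.502), and 2.32 (adjusted p = 0.0145) without replicate 9.

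Around the 4-fold limit the genes just inside were Ank3 (2.01) and Ankrd2 (2.04) in muscle and Cpt1a (-2.001) and Sox18 (-2.004) in fat. Just outside were Pgk1 (1.997), Ndufa5 (1.99), Cd302 (-1.997) and Heph (-1.99). Pgk1 was not called without any 1 of the other 6 arrays besides muscle replicate 9 (adjusted p = 0.0796 to 0.113), and on another probe set Sox18 differed by -0.34 (adjusted p = 0.161) and Ank3 by 0.91 (adjusted p = 0.0366).

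Arrays that the comparison did not use gave most of the large differences again. In low-fat B6 mice 3206 genes were called (38.9%), 18.6% of all genes higher in muscle and 20.2% in fat. There 168 genes were called 4-fold or more higher in muscle (2.04% of genes) and 135 in fat (1.64%). Of the 96 and 158 genes of 129S6, 90 and 89 were among them (93.8% and 56.3% of the 129S6 lists, 53.6% and 65.9% of the B6 lists), and 95 and 155 were called in the same direction. In high-fat 129S6 mice 2496 genes were called (30.3%), 15.4% of all genes higher in muscle and 14.8% in fat. There 116 (1.41%) and 159 (1.93%) genes were 4-fold or more, with 82 and 82 shared (85.4% and 51.9% of the low-fat lists, 70.7% and 51.6% of the high-fat lists), and 96 and 123 called in the same direction. In all 3 comparisons 78 of the 96 and 58 of the 158 were 4-fold or more. Myh4 differed by 9.75 in B6 and 10.01 on the high-fat diet, and Cidec by -3.88 and -4.02.

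Few genes were called for a tissue difference that differed between the strains, and their number depended on single arrays. A gene not called is not shown to be alike in the strains. The test of 129S6 minus B6 on the low-fat diet, over 14 arrays, called 41 genes (0.497%), 12 positive (0.145%) and 29 negative (0.351%). It called 246 (2.98%) without muscle replicate 9, 61 without muscle replicate 10 of 129S6, 15, 12 and 9 without muscle replicates 13, 14 and 15 of B6, 27 and 13 without fat replicates 1 and 3 of B6, and 6, 20 and 12 without fat replicates 9, 10 and 11 of 129S6. By the numbered tags in the sample titles, fat replicate 9 follows directly on the B6 fat arrays, and the other 129S6 fat arrays come after a gap. The muscle arrays of the main comparison carry lower numbers than all its fat arrays. The titles do not say what the tags mean. An effect tied to them could not be told apart from tissue in that comparison.

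Several of the strain differences lay in fat. Ccl2, a chemokine that draws monocytes, was at 4.47, 4.29 and 4.97 in 129S6 fat and 7.21 to 7.95 in B6 fat, with 3.88 to 4.54 in muscle of either strain. Its tissue difference was -0.43 in 129S6 (-0.52, adjusted p = 0.0324, without replicate 9) and -3.18 in B6, a strain test of 2.75 ± 0.28 (adjusted p = 0.00065). Mmp12, the macrophage elastase, was at 5.81 to 6.48 in 129S6 fat and 8.56 to 10.02 in B6 fat (2.75 ± 0.44, adjusted p = 0.0192). Npy, neuropeptide Y (2.03 ± 0.31, adjusted p = 0.0135), and Ubd, a ubiquitin-like protein induced by cytokines (1.91 ± 0.25, adjusted p = 0.00639), were at 8.14 to 9.23 and 7.00 to 7.75 in B6 fat and at 6.43 to 6.79 and 5.08 to 5.39 in 129S6 fat. Mmp12 lost its call without muscle replicate 13 or 14 of B6 or fat replicate 9 or 10 of 129S6 (adjusted p = 0.0506 to 0.0726), and Npy without muscle replicate 15 of B6 or fat replicate 9 of 129S6 (0.0505 and 0.0542). On another probe set the tissue difference of Mmp12 in 129S6 was -0.32 (adjusted p = 0.222), in place of -1.15.

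In the other direction, the difference was more toward fat in 129S6. Retn was lower in 129S6 muscle (6.27 to 7.43) than in B6 muscle (7.85 to 8.60) and higher in 129S6 fat (11.65 to 11.90) than in B6 fat (10.72 to 11.28), with a strain test of -2.003 ± 0.36 (adjusted p = 0.0277). Hal, histidine ammonia-lyase, differed by -1.33 in 129S6 and 0.33 in B6 (-1.67 ± 0.21, adjusted p = 0.00397). Sp3, a transcription factor of GC-rich promoters, gave -1.75 ± 0.30 (adjusted p = 0.0271). Zbtb16, a zinc finger repressor, gave -2.58 ± 0.50 (adjusted p = 0.0375), and -0.08 (adjusted p = 0.921) with its probe set chosen by another rule. Retn and Sp3 were called with 5 and 9 of the 14 arrays left out in turn, and Zbtb16 with 3; otherwise the adjusted p was 0.0505 to 0.124.

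**Figure D5:**
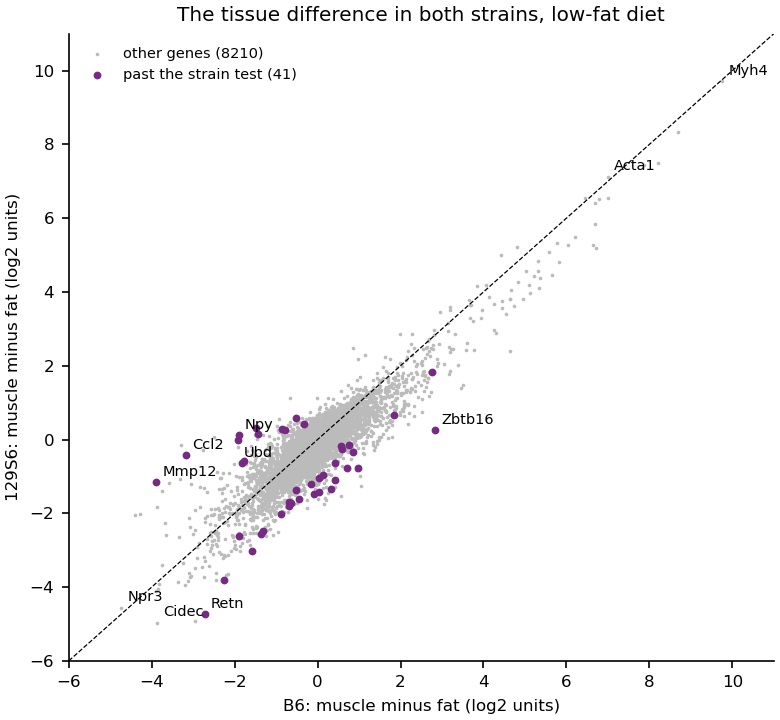
For each gene the muscle minus fat difference in low-fat 129S6 mice is plotted against that in low-fat B6 mice, in log2 units, and the dashed line marks equal differences. The 41 genes past the strain test are purple; Ccl2 and Mmp12 lie above the line at -0.43 and -1.15 against -3.18 and -3.90, and Retn lies below it.

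The same test for diet in 129S6, low-fat minus high-fat over 14 arrays, called 21 genes (0.255%), 14 positive (0.17%) and 7 negative (0.0848%). It called 58 (0.703%) without muscle replicate 9, as many without high-fat muscle replicate 1, 13 without high-fat muscle replicate 3, 8 and 6 without low-fat fat replicates 9 and 10, and 327 without high-fat fat replicate 14. That array also stood apart for single genes: Npr3 was at 9.60 in it and at 6.64 and 4.63 in high-fat fat replicates 12 and 13, and Lipe at 10.83, 8.57 and 8.07.

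Genes with a larger fat level on the low-fat diet included Agt, angiotensinogen, at 9.86 to 10.42 in low-fat and 7.73 to 8.17 in high-fat fat (-2.19 ± 0.26, adjusted p = 0.00272). Ptges, a prostaglandin E synthase, was at 8.26 to 8.32 and 6.19 to 6.65 (-1.77 ± 0.18, adjusted p = 0.00197). Apcdd1, an inhibitor of Wnt signalling, and Tst, a sulfurtransferase of mitochondria, gave -1.65 ± 0.24 (adjusted p = 0.0112) and -1.80 ± 0.28 (adjusted p = 0.0138).

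Genes with a larger fat level on the high-fat diet included Ptger3, a receptor of prostaglandin E, at 4.68 to 5.84 in low-fat and 7.40 to 8.20 in high-fat fat (2.35 ± 0.35, adjusted p = 0.0113). Lgals3, a lectin of macrophages, was at 5.42 to 6.34 and 8.00 to 8.32 (2.30 ± 0.39, adjusted p = 0.0277). Apobec1, a cytidine deaminase that edits RNA, gave 2.15 ± 0.27 (adjusted p = 0.00476) and Aldh1a7, an aldehyde dehydrogenase, 1.81 ± 0.26 (adjusted p = 0.0112). Tst and Ptger3 lost their calls without low-fat fat replicate 9 or 10 (adjusted p = 0.0513 to 0.0587), Aldh1a7 without low-fat fat replicate 10 (0.057), and Lgals3 with any 1 of 9 arrays left out (0.06 to 0.123).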

How the data were processed

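The values are log2 expression levels from RMA that the authors deposited for 12488 probe sets of the Affymetrix array on 45 arrays; RMA is named, with no version, in the submitters' processing notes. Control probe sets (66) and probe sets with several gene symbols (396) or none (1193) were left out, and 10817 of the other 10833 matched the RefSeq gene table. For each of 8251 genes the brightest probe set on average over the 7 arrays was kept, and other probe sets with a mean above 4.5 are given where they depart in call, direction or size. Differences were fitted with limma 3.58.1 in R 4.3.3 (lmFit and eBayes, two-sided) with Benjamini-Hochberg adjustment over all 8251 genes and a threshold of 0.05. The strain and diet tests are differences of tissue differences in 1 fit over 4 groups each. On simulated data for the muscle and fat arrays, 67% of 100 genes changed by 1 log2 unit and 93% of 100 changed by 2 were recovered, with 12 false calls. The simulation drew normal noise for each gene and array independently, with the same SD in both tissues. It held no array that deviated in many genes together, as muscle replicate 9 did. These rates therefore need not hold for the measured arrays. Named genes were the 15 largest differences each way, up to 5 called members per list, both members of isoform pairs, cell type markers, genes at the 4-fold limit and up to 8 genes each way for the strain and diet tests, of which some are named here. The members, lists and motifs were chosen with earlier results of these data known. Alternatives left out each array, or changed the probe set rule, the filter, the normalization, the arrays fitted and the covariates. The number of arrays limits the precision, and p-values set a difference against the spread between arrays of a group, each made from a pool. Plots used Python 3.11.15 and matplotlib 3.10.9.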

Additional observations from a re-analysis of the deposited data

Results flagged for a closer look

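Muscle replicate 9 lay far from the other 3 muscle arrays for many genes. Over the 4 muscle arrays 115 measures were compared: levels of named genes, the array SD and the Gapdh 3′ minus 5′ signal. Of these, 31 had 1 array whose gap to its nearest neighbour passed Dixon's 95% critical value. In 27 of them the array was replicate 9, and the Gapdh signal was not among the 31. For a single measure chance alone marks about 1 in 20 such groups. The measures share the same 4 arrays and many vary together, so their count cannot be judged against that rate. For the array SD the gap was 0.875 of the range. For single genes the gap of replicate 9, as a share of the range, was as follows: Acta1 (0.929), Actn3 (0.907), Adssl1 (0.881), Ak1 (0.948), Apoe (0.989), Atp2a1 (0.939), Casq1 (0.878), Ckm (0.942), Clcn1 (0.913), Cox6a2 (0.914), Eno3 (0.948), Hba-a1 (0.904) and Hk2 (0.866). Further genes were Myh1 (0.834), Myh4 (0.936), Myl1 (0.903), Pfkm (0.903), Pgam2 (0.898), Pgk1 (0.884), Phkg1 (0.942), Pvalb (0.898), Pygm (0.938), Ryr1 (0.927), Sh3bgr (0.971), Slc25a4 (0.984) and Tnnc2 (0.986). Other arrays stood apart for Acta2 (replicate 11, 0.844), Adipoq (replicate 11, 0.853), Ghr (replicate 12, 0.851) and Ptges (replicate 10, 0.936).

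The tissue difference of some named genes differed between the strains by the test of that difference, in log2 units of 129S6 minus B6: Agt (-1.19), Ccdc80 (-1.56), Ccl2 (2.75), Hal (-1.67), Mmp12 (2.75), Npy (2.03), Ptges (-0.73), Retn (-2.003), Sp3 (-1.75), Tst (-1.51), Ubd (1.91) and Zbtb16 (-2.58). Between the diets, low-fat minus high-fat, the differing genes were Agt (-2.19), Aldh1a7 (1.81), Apcdd1 (-1.65), Apobec1 (2.15), Lgals3 (2.30), Ptger3 (2.35), Ptges (-1.77), Tst (-1.80) and Upk3b (-1.05). In the strain test Agt lost its call with any 1 of 5 arrays left out (adjusted p = 0.0501 to 0.0751), Ccdc80 with any 1 of 5 (0.0595 to 0.079), Ptges with any 1 of 10 (0.0512 to 0.0937) and Tst with any 1 of 3 (0.0501 to 0.0655). In the diet test Upk3b lost its call without low-fat fat replicate 9 or 10 (adjusted p = 0.0513 and 0.0601).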

How the results depend on the processing

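With all 7 arrays 2213 genes were called, 889 higher in muscle and 1324 in fat, and leaving out 1 array in turn gave 1191 to 4076 calls (380 to 2039 in muscle and 811 to 2037 in fat). With the Gapdh 3′ minus 5′ signal as a covariate 892 genes were called (263 and 629), with arrays centred on ribosomal protein genes 286 (136 and 150), and with the array SD as a covariate 3829 (1884 in muscle). Of the 113 named genes, called or not, 27 lost a call with the Gapdh covariate, 28 with ribosomal centring and 14 with the replicate block. All 45 arrays in 1 fit called 1633 genes higher in muscle. Centring on ribosomal protein genes moved the median difference of all genes from 0.069 to 0.243. The 96 genes of muscle became 61 with the Gapdh covariate and 157 with the array SD, and testing against 2 log2 units with limma's treat left 16 in muscle and 27 in fat. With the array SD as a covariate Col1a1 (0.50) and Hk1 (0.51) changed sign. The strain test called 6 to 246 genes without 1 array and 25 with the Gapdh covariate, and the diet test 6 to 327 without 1 array and 53 with all 45 arrays. With all 45 arrays in the fit, 4 of the named strain test genes lost their call and 8 kept it. Ubd and Zbtb16 were among the 4 (adjusted p = 0.247 and 0.14). The cause of these changes was not tested. Same-numbered muscle and fat arrays did not deviate together (correlations of -0.171, -0.133 and -0.06), and the fit with a replicate block called 824 genes (254 and 570); a block fit was not run for the strain and diet tests, where it could not be estimated.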
